A study of Mus musculus with 3 samples.

Results

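The ubiquitin and TRAF regulators of NF-kB are the set of genes described here across spleen cells kept with urine or with PBS. The 10 members were taken by gene symbol, from the probes that are not controls, and are Tnfaip3, Tnip1, Tnip3, Birc2, Birc3, Traf1, Traf2, Traf3, Traf6 and Cyld. They are read by 25 of the 56599 probes used and are 10 of 36609 genes on the array. All 10 had at least 1 probe well above background, by the scanner software's own call, on at least 1 array.

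Male MRL/MpJ spleen cells, taken at 6 months, were held in culture for 3 h under 3 conditions, with 1 single-colour array each, and the labels do not settle whether 1 or more mice gave them. The lpr urine group received urine of MRL/MpJ-Faslpr/lpr mice, a strain that carries the Fas lpr mutation and develops lupus-like autoimmune disease. The MRL/MpJ urine group received urine of MRL/MpJ mice, the strain of the spleen cells. The control group received PBS, phosphate-buffered saline. Urine of male donors aged 6 months was pooled within each strain (n = 6, as the labels give it), spun and passed through a 0.22 µm filter, so each urine is 1 pool, and the cells in all 3 groups carried an intact Fas gene. The labels do not give how much urine was added. The design asks how spleen cells respond to urine and whether urine of the autoimmune strain acts differently. With 1 array per group there was no test, no p-value and no replicate error. What the treatment, the well and the array each contribute to a difference cannot be told apart.

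NF-kB transcription factors are switched on when receptors of the TNF, interleukin-1 and Toll-like families assemble ubiquitin chains on adaptor proteins, and those chains recruit the kinases that release NF-kB. TRAF proteins and the cIAP proteins encoded by Birc2 and Birc3 build or organise the chains, while A20, encoded by Tnfaip3, and CYLD take them apart or block them. Several of these genes are themselves NF-kB targets in many cell types, so that the pathway induces its own brakes.

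A level below is the processed signal in log2 units, relative to the 75th percentile of its array, and a difference is the difference of 2 levels of the same probe. The 75th percentile was 75.7 intensity units with lpr urine, 86.6 with MRL/MpJ urine and 157.5 with PBS, so equal raw signals stand for a higher level on the urine arrays. A gene was called higher or lower when its probe passed the background call on each array of the pair and the difference reached 2-fold, that is 1 on the log2 scale. Where a gene has several probes, the lead probe is the one measured on most arrays and then the brightest. Repeated spots of 1 probe within the arrays would give a difference an SD of 0.05 to 0.25, larger for dim probes, which leaves out all variation between arrays. Among the genes measured on both arrays, the median difference was 0.15 for lpr urine against PBS over 19370 genes and 0.13 for MRL/MpJ urine against PBS over 19639 genes. All 8 B cell, all 8 macrophage and all 8 neutrophil markers were measured on the 3 arrays, as were the 7 T cell markers on the array, while 6 of 7 urinary tract epithelium markers were not measured on both arrays of any comparison. B cell markers had a median of 0.78 with lpr urine and 0.80 with MRL/MpJ urine against PBS, macrophage markers 0.94 and 0.92, neutrophil markers 0.77 and 0.54, and T cell markers 0.12 and 0.02. Summed over the list, the scaled signal of B cell markers was 310.0 and 325.9 with the urines, against 204.6 with PBS, and that of T cell markers 202.2 and 192.6, against 220.8. For neutrophil markers the sums were 804.2 and 816.5 with the urines, against 420.8 with PBS. The bright Csf3r, S100a9 and S100a8 weigh most in them. Before scaling, Csf3r read 26638 with lpr urine, 33323 with MRL/MpJ urine and 26263.5 with PBS. S100a9 read 23724, 26059 and 28550, and S100a8 read 9282, 9987 and 10059. Of the 8 neutrophil markers, 2 were 2-fold higher with each urine, and 1, Mpo, was lower with lpr urine, at -1.19, and 0 with MRL/MpJ urine. All these medians and sums depend on the 75th-percentile scale. Spike-ins are RNAs added in fixed amounts. Scaling by them shifted every difference from PBS by -1.0 with lpr urine and by -0.91 with MRL/MpJ urine. The part of these cell types in the differences below was not tested. Fewer cells of a type and less RNA per cell cannot be told apart in bulk RNA.

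Against PBS, lpr urine went with a lower signal, by 2-fold or more, for 4 of the 9 members that were measured on each array, and with a higher one for 0, and the counts were the same with MRL/MpJ urine. These 4 were Tnfaip3, Tnip1, Traf1 and Traf6 in both comparisons. Traf6 rests on a lead probe annotated to a cDNA clone, while its probes annotated to the RefSeq mRNA were within 2-fold at this scaling. Of all genes measured on both arrays, 12.0% were called lower and 18.5% higher with lpr urine, and 11.1% lower and 16.9% higher with MRL/MpJ urine. The tenth member, Tnip3, was measured on the PBS array and on neither urine array. Of genes measured on at least 1 array of the pair, 8.61% were measured with PBS and not with lpr urine. For PBS and MRL/MpJ urine this share was 7.39%, and the share missing with both urines was not computed. The members had a median difference of -0.44 with lpr urine and -0.90 with MRL/MpJ urine, beside 0.15 and 0.13 over all genes. Both urines were set against the same PBS array, so the 2 comparisons are not independent.

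**Figure D1:**
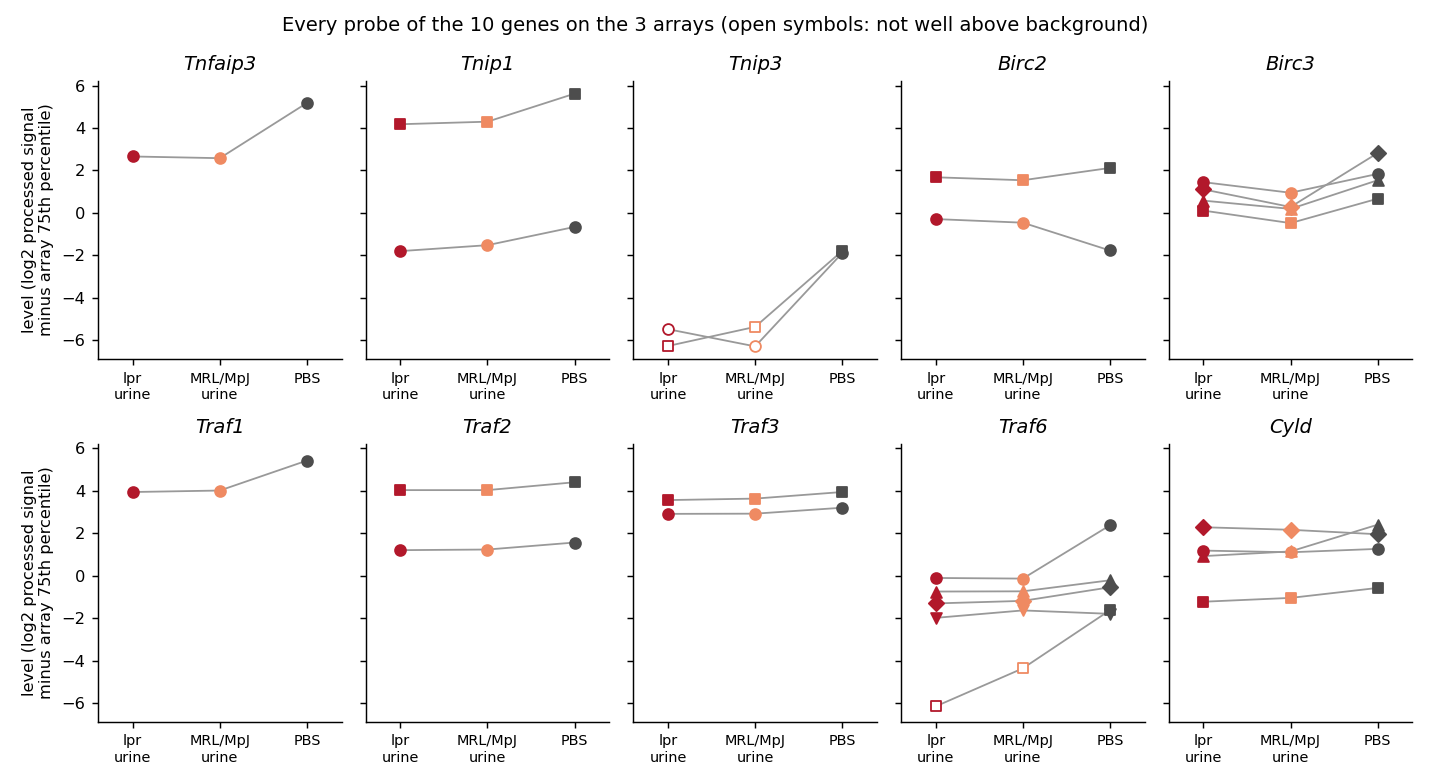
Level of every probe of the 10 genes (y axis, log2 of processed signal over the 75th percentile of its array) on the lpr urine, MRL/MpJ urine and PBS arrays (x axis). Each symbol is 1 probe on 1 array, lines join a probe's 3 values, and open symbols are not well above background. Tnfaip3 stood at 2.66 and 2.58 with the urines and at 5.18 with PBS, and the urine values of Tnip3 are open. Heights of different probes are not comparable with each other.

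Tnfaip3, the gene of the ubiquitin-editing enzyme A20 that ends NF-kB signalling, had the lowest mean difference of the 9 members measured on both arrays, and Tnip3, known by a bound alone, has no place in that order. It is read by 1 probe on chromosome 10, 18720776 to 18720835 on build mm9, in the strand of the gene.
Tnfaip3 probe: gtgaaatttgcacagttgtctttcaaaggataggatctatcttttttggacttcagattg
The processed signal of Tnfaip3 was 477 intensity units with lpr urine, 516 with MRL/MpJ urine and 5718 with PBS. Both urine arrays were far below the PBS array and close to each other. The difference from PBS was -2.53, or 5.76-fold lower, with lpr urine and -2.61, or 6.09-fold lower, with MRL/MpJ urine. Only 0.9% of measured genes lay lower than that in the first comparison and 0.6% in the second. Of the 14127 other named genes measured and unsaturated on all 3 arrays, the 3 closest to Tnfaip3 in both differences were Slc35f6, at -2.50 and -2.57, Mt2, at -2.57 and -2.57, and Dusp2, at -2.52 and -2.53. The distance is the Euclidean one over these 2 differences, 0.047 for Slc35f6, 0.053 for Mt2 and 0.073 for Dusp2, and it rests on 3 arrays.

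Tnip1 encodes ABIN1, which binds ubiquitin chains and brings A20 to them. Its lead probe, on chromosome 11, 54724291 to 54724350 on mm9, read 1369.7 with lpr urine, 1709.9 with MRL/MpJ urine and 7764 with PBS. The PBS array was the highest of the 3. The difference from PBS was -1.45 with lpr urine and -1.32 with MRL/MpJ urine. The other probe, on chromosome 11, 54754213 to 54754272, pointed the same way, with 21.8, 30.1 and 99.8 in the same order of arrays, and with differences of -1.14 and -0.87. Its SD from repeated spots was 0.20. After another background correction, normexp, whose offset draws dim signals together, these differences were -0.34 and -0.30.

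Tnip3 encodes ABIN3, another ubiquitin-binding relative that binds A20. Neither of its 2 probes was well above background on a urine array, and both were on the PBS array.
Tnip3 probe 1, chromosome 6, 65550106 to 65550165 on mm9: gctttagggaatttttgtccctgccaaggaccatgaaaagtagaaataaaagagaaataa
Tnip3 probe 2, chromosome 6, 65582156 to 65582215 on mm9: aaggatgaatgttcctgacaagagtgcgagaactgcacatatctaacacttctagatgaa
Probe 2, the lead probe, read 0.982 intensity units with lpr urine, 2.10 with MRL/MpJ urine and 45.7 with PBS. Probe 1 read 1.70, 1.11 and 42.4 on these arrays. The 2 probes lie at different places along the gene and gave the same picture, present on the PBS array and at the floor on both others. Set against the lowest signal called well above background, Tnip3 was at least 5.0-fold lower with lpr urine and at least 5.6-fold lower with MRL/MpJ urine on probe 2, and at least 4.6-fold and 5.2-fold lower on probe 1. These bounds depend on the scaling of the arrays.

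Cyld encodes the deubiquitinase CYLD, which removes ubiquitin chains from TRAF proteins and other adaptors. Its 4 probes did not move together. From the 5′ to the 3′ end of the gene they lie on chromosome 8 of mm9 at 91229427 to 91229486, 91260596 to 91260655, 91271028 to 91271087 and 91275781 to 91275840. The last 2, which differed most, are shown because both are annotated to the same RefSeq transcript.
Cyld probe 3: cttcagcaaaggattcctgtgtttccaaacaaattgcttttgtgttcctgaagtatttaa
Cyld probe 4: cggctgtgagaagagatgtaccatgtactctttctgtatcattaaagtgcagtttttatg
Probe 3, the lead probe, read 369 with lpr urine, 386 with MRL/MpJ urine and 609 with PBS, with differences of 0.33 and 0.21 from PBS. Probe 4 read 143, 191 and 831 on these arrays, with differences of -1.48 and -1.26. Probe 4 alone passed 2-fold, and probe 3 changed sign to -0.05 and -0.16 with arrays scaled by their medians and to -0.66 and -0.70 with spike-ins. Probes 1 and 2 differed by -0.09 and -0.65 with lpr urine and by -0.17 and -0.47 with MRL/MpJ urine. The lead probe gave Cyld the highest mean difference of the 9 members, and the named genes closest to it over both differences were Ccdc6, Plpp5 and Mtmr3, each within 0.01 of it on the log2 scale.

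Birc2 and Birc3 encode cIAP1 and cIAP2, the ubiquitin ligases that TRAF2 carries to TNF receptors and that keep the kinase NIK low in resting cells. The 2 Birc2 probes went opposite ways. Probe 2 lies at the 3′ end on chromosome 9, 7818688 to 7818747, and probe 1 at the 5′ end, 7836811 to 7836870, both on mm9. In probe 1 the capitals mark 58 bases shared with the RefSeq sequence of the gene's start region on GRCm38, chr9:7836811-7836868, minus strand. They run from -62 to -5 relative to the downstream one of 2 annotated start sites.
Birc2 probe 1: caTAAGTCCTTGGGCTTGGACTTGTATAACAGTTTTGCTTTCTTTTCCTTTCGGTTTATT
Birc2 probe 2: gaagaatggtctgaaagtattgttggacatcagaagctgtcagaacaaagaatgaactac
Probe 2 read 243 with lpr urine, 252 with MRL/MpJ urine and 686 with PBS, with differences of -0.44 and -0.58 from PBS. Probe 1 read 61.9, 62.9 and 46.3 on these arrays, with differences of 1.47 and 1.30. Probe 1 was the only one of the 22 member probes measured on both arrays that was 2-fold higher with lpr urine, where 16.9% of all measured probes were, and the same held with MRL/MpJ urine, where 15.5% were. It was 1.08 and 0.94 higher with arrays scaled by their medians, 0.90 and 0.79 after normexp, and 0.48 and 0.40 under spike-in scaling. Its direction thus held under these settings. The 2-fold call was lost with spike-ins, with normexp, whose offset draws dim signals together, and for MRL/MpJ urine with array medians too. Whether the 5′ stretch is used in a separate transcript was not tested.

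All 4 Birc3 probes were below PBS, by amounts that varied with the probe. From the 5′ to the 3′ end they lie on chromosome 9 of mm9 at 7868669 to 7868728, 7866193 to 7866252, 7856162 to 7856221 and 7854409 to 7854468, and the lead probe and the most distant one are shown.
Birc3 probe 1: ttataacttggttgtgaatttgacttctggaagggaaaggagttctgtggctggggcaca
Birc3 probe 3: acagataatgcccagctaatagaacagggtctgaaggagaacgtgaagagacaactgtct
Probe 3 read 164 with lpr urine, 105 with MRL/MpJ urine and 1114 with PBS, which gave -1.71 and -2.54 from PBS. Probe 1 read 206, 167 and 565, which gave -0.40 and -0.90. Probe 4, annotated to the RefSeq mRNA, gave -0.96 and -1.35, and probe 2 gave -0.56 and -1.15. Thus 1 of 4 probes was at least 2-fold lower with lpr urine and 3 of 4 with MRL/MpJ urine, against 13.2% and 12.4% of all measured probes, and the lead probe itself was within 2-fold in both.

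**Figure D2:**
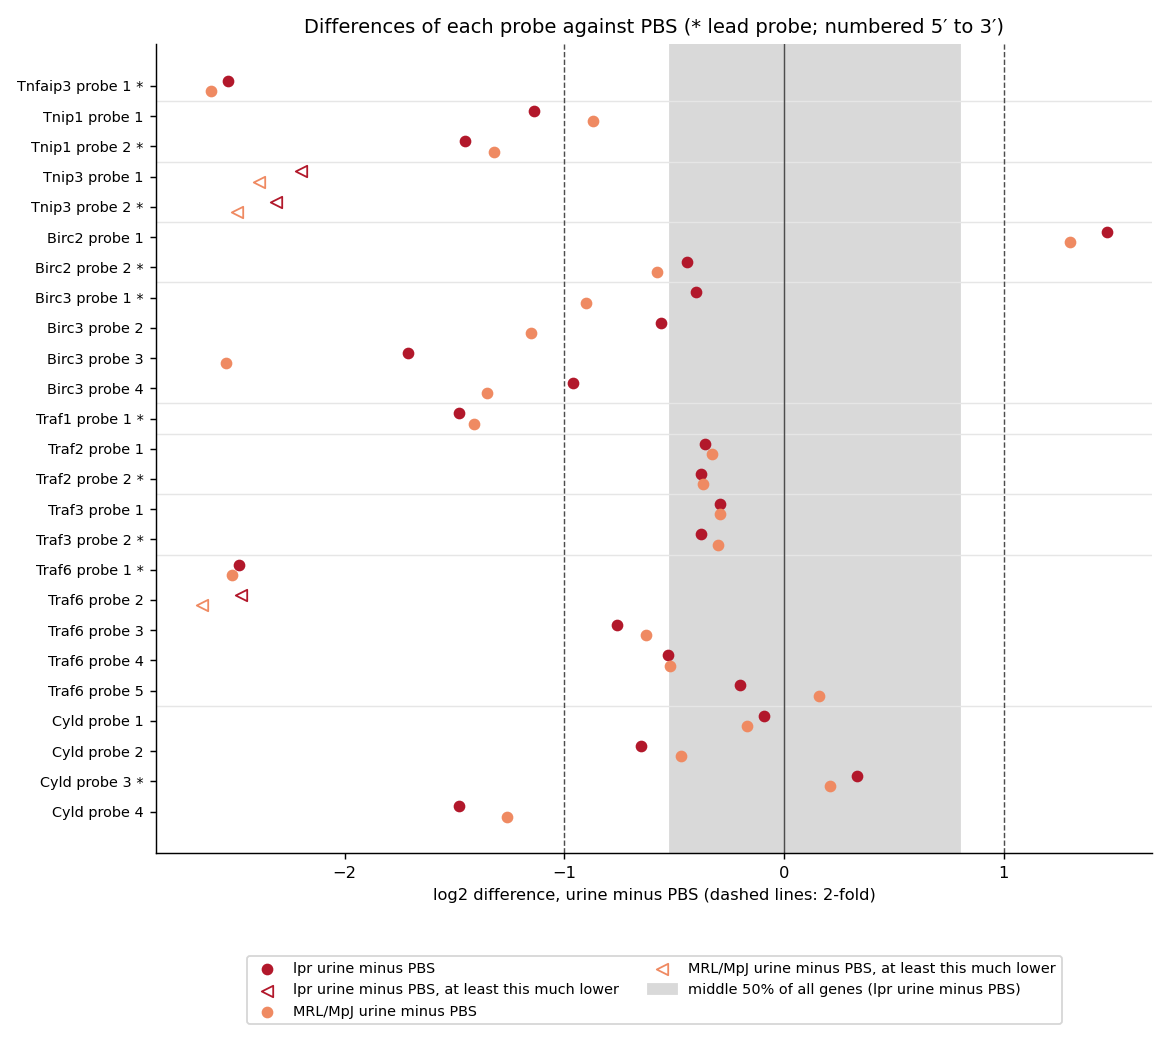
Log2 difference from PBS (x axis) of each member probe (y axis, numbered from the 5′ to the 3′ end of its gene, lead probes starred) for lpr urine and MRL/MpJ urine. Triangles are probes not measured on the urine array and mark the least size of the difference, dashed lines mark 2-fold, and the grey band spans the 25th to the 75th percentile of all genes for lpr urine, -0.52 to 0.80. The only points to the right of the upper line are those of Birc2 probe 1, at 1.47 and 1.30.

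The TRAF genes did not share a pattern. Traf1 encodes a TRAF without the RING domain that the ligase members of the family carry, and it is itself induced by NF-kB in lymphocytes. Its single probe, on chromosome 2, 34798882 to 34798941 on mm9, read 1162 with lpr urine, 1394 with MRL/MpJ urine and 6739 with PBS. The urine arrays were close to each other and well below PBS. Traf1 was 2.79-fold lower with lpr urine and 2.66-fold lower with MRL/MpJ urine, differences of -1.48 and -1.41.

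Traf2, whose protein holds the cIAPs at TNF receptors, and Traf3, whose protein marks NIK for destruction, stayed within 2-fold on all of their probes. The lead probe of Traf2, on chromosome 2, 25374386 to 25374445 on mm9, read 1234 with lpr urine, 1416 with MRL/MpJ urine and 3331 with PBS, which gave -0.38 and -0.37. Its other probe, 25374909 to 25374968, gave -0.36 and -0.33. The lead probe of Traf3, on chromosome 12, 112505252 to 112505311, read 891, 1076 and 2416, which gave -0.38 and -0.30, and its other probe, 112505042 to 112505101, gave -0.29 on both. The 2 probes of each gene were within 0.09 of each other. Under spike-in scaling both genes passed 2-fold lower, at -1.37 and -1.28 for Traf2 and -1.38 and -1.21 for Traf3.

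Traf6 encodes the ligase that links interleukin-1 and Toll-like receptors to NF-kB, and its 5 probes disagreed most. In the gene's 5′ part, probe 1 is annotated to the cDNA clone AK009110 and probe 2 to an Ensembl transcript, at 101519206 to 101519265 and 101526308 to 101526367 on chromosome 2 of mm9. Probes 3 and 4, annotated to the RefSeq mRNA NM_009424, lie at 101537964 to 101538023 and 101540660 to 101540719, and probe 5, annotated to the clone AK083275, at 101542497 to 101542556. A probe of each kind is shown, since the call depends on which one is read.
Traf6 probe 1: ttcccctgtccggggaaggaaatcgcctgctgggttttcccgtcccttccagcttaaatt
Traf6 probe 4: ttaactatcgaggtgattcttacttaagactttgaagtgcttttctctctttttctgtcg
Probe 1, the lead probe, read 70.4 with lpr urine, 78.8 with MRL/MpJ urine and 816 with PBS, which gave -2.48 and -2.51. Probe 4 read 45.2, 51.8 and 135, which gave -0.53 and -0.52. Probe 3 gave -0.76 and -0.63, again within 2-fold. Probe 2 read 1.06 with lpr urine and 4.20 with MRL/MpJ urine, not well above background, against 50.9 with PBS, and was at least 5.5-fold lower with lpr urine and at least 6.3-fold lower with MRL/MpJ urine. Probe 5 was dim, at 19.0, 27.8 and 45.3, with differences of -0.20 and 0.16, and both were negative with array medians. With normexp both were positive, but its offset of 50 is above each of these signals and draws them together. The normexp signs therefore cannot decide the direction of this probe. The 2 probes at the 5′ end were therefore far lower with urine and the 3 towards the 3′ end were not 2-fold apart. Read from the RefSeq mRNA probes, Traf6 was within 2-fold in both comparisons, though not under spike-in scaling, where probes 3 and 4 stood at -1.76 and -1.52 with lpr urine and at -1.54 and -1.43 with MRL/MpJ urine. Probe 3 also reached -1.15 and -1.0 with array medians. Transcript models on mm9 were not used here, so exon and intron positions are not given for any probe.

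The start regions of the members were searched for the 10-base kB motif, a sequence that NF-kB dimers bind. Windows of RefSeq on GRCm38.p6, from 250 bases before to 50 after each annotated start, were searched on both strands by the motif's consensus, and overlapping matches were counted apart. All 10 members had a window. A match was found for 5 of 10 members, namely Tnfaip3, Tnip1, Tnip3, Traf3 and Cyld. Of the 12 windows of all 10 members, 5 held a match, or 41.7%, against 2779 of all 32851 windows, or 8.46%. By gene, a match was found for 2581 of 27025 genes, or 9.55%. The windows of Tnfaip3, Tnip1 and Tnip3, which were lower with both urines, and of Traf3, which stayed within 2-fold, are shown from 200 bases before to 30 after the start, with the matches in capitals.
Tnfaip3, chr10:19015381-19015610, minus strand: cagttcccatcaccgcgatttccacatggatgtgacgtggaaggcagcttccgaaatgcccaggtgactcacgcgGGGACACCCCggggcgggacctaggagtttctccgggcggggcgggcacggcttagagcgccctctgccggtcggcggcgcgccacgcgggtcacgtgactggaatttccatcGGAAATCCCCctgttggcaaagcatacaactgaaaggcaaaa
Tnip1, chr11:54962911-54963140, minus strand: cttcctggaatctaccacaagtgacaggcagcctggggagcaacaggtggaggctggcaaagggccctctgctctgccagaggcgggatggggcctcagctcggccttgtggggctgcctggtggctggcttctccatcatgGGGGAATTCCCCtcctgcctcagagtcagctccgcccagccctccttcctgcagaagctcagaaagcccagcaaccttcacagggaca
Tnip3, chr6:65590198-65590427, plus strand: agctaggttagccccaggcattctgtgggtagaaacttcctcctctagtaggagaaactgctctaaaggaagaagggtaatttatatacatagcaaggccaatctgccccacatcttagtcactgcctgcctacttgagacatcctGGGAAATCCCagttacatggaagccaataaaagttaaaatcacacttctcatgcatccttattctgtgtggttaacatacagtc
Traf3, chr12:111166170-111166399, plus strand: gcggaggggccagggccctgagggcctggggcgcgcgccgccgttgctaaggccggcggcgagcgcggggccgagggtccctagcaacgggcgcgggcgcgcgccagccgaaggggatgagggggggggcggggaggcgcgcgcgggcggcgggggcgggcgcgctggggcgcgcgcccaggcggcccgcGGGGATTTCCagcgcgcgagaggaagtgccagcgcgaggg
Tnfaip3 had 2 matches in the window shown, starting at -125 and -12 from the start site, and none in the window of its other annotated start. Tnip1 had 3 that overlap in 1 stretch from -58. Tnip3 had 1 at -54 and Traf3 had 1 at -10. Cyld, whose window is not shown and whose lead probe was within 2-fold, had 1 at -155. Traf1 and Traf6, 2 of the 4 members called lower, had no match in their windows, nor had Birc2, Birc3 and Traf2, whose lead probes were below PBS by less than 2-fold. A match is a run of letters and was not tested as a binding site, and a window without one says nothing of sites elsewhere.

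The direct comparison of the urines passed 2-fold for none of the 9 members measured on both arrays. For lpr urine against MRL/MpJ urine, 0 of 9 members were 2-fold higher and 0 were lower on their lead probes, where 0.34% of 20014 genes were higher and 0.06% lower. The lead probe differences ran from -0.13 for Tnip1 to 0.50 for Birc3. Over probes, 0 of 22 were 2-fold higher and 0 lower, where 0.294% of all measured probes were higher and 0.0719% lower. Tnfaip3 was at 0.08, Traf1 at -0.07, Traf3 at -0.08, Birc2 at 0.14, Cyld at 0.13 and Traf6 at 0.03 on their lead probes.

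The largest differences between the urines among the 22 probes measured on both arrays were those of Birc3. Its 4 probes were higher with lpr urine by 0.50, 0.59, 0.83 and 0.39, from the 5′ to the 3′ end. The SD from repeated spots was 0.12 for these probes, which covers noise within an array and not between arrays. The share of measured genes that were higher still was 3.6%, 2.3%, 0.7% and 6.1% for these probes. On probe 3 the signal was 164 with lpr urine and 105 with MRL/MpJ urine, against an array percentile that was lower with lpr urine. The direction held for all 4 probes with normexp, at 0.34, 0.34, 0.55 and 0.24, and with spike-in scaling, at 0.41, 0.50, 0.74 and 0.30. Traf6 probe 5 lay the other way, at -0.36, with an SD from repeated spots of 0.25 and with 4.3% of measured genes lower still. Probes of 1 gene share their RNA sample and are not replicates of the condition.

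**Figure D3:**
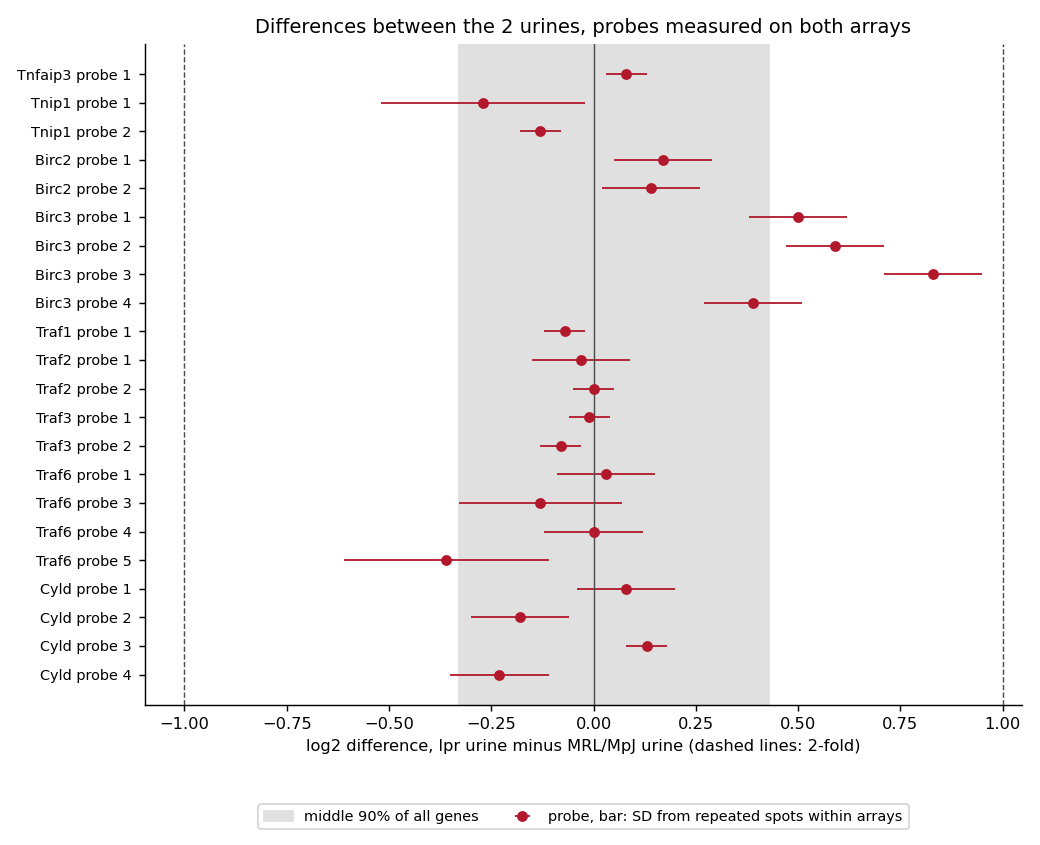
Log2 difference, lpr urine minus MRL/MpJ urine (x axis), of each member probe measured on both arrays (y axis). Bars are the SD expected from repeated spots within arrays, the grey band spans the 5th to the 95th percentile of all genes, -0.33 to 0.43, and dashed lines mark 2-fold. Birc3 probes 1 to 3, at 0.50, 0.59 and 0.83, lie to the right of the band, and Traf6 probe 5, at -0.36, lies to its left.

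Other genes of the pathway were read from 4 lists, to be set against the 12.0% of all genes called lower and 18.5% called higher with lpr urine, and 11.1% and 16.9% with MRL/MpJ urine. Of 19 other ubiquitin ligases, binders and deubiquitinases measured on both arrays, 0 were 2-fold higher, and 2 were lower with lpr urine and 1 with MRL/MpJ urine, with list medians of -0.20 and -0.37. Otulin, the gene of a deubiquitinase of linear chains, read 261 with lpr urine, 301 with MRL/MpJ urine and 1129 with PBS, a difference of -1.05 in both comparisons. Tnip2, which encodes ABIN2, differed by -1.01 with lpr urine and by -0.78 with MRL/MpJ urine.

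Of 18 adaptor and kinase genes, 2 were lower and 0 higher with each urine, a share called lower that is near that of all genes (12.0% and 11.1%), with medians of -0.18 for lpr urine and -0.27 for MRL/MpJ urine. They were Map3k14, the gene of the kinase NIK that TRAF3 and the cIAPs keep in check, and Irak3, the gene of a brake on Toll-like receptor signalling. Map3k14 read 373 with lpr urine, 508 with MRL/MpJ urine and 2231.5 with PBS, differences of -1.52 and -1.27, and its 3 probes ran from -2.28 to -1.03 with lpr urine and from -2.02 to -1.13 with MRL/MpJ urine. Irak3 differed by -1.24 with lpr urine and -1.25 with MRL/MpJ urine on its lead probe, and by -0.87 and -0.71 on its least distant probe.

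Of 13 measured receptor genes whose proteins recruit TRAFs, 6 were lower and 1 was higher with each urine, with medians of -0.70 for lpr urine and -0.46 for MRL/MpJ urine. Tnfrsf9, the co-stimulatory receptor 4-1BB that signals through TRAF1 and TRAF2, read 85.3 with lpr urine, 102 with MRL/MpJ urine and 1115 with PBS, differences of -2.65 and -2.58. Tnfrsf4, the co-stimulatory receptor OX40, differed by -2.30 and -2.21. Tnfrsf1b, TNF receptor 2, differed by -2.47 and -2.53 on its lead probe but by 0.63 and 0.61 on its other one. The single higher gene was Tnfrsf17, a plasma cell receptor, at 1.54 and 1.83, a gene named after its value was seen and dim at 12.4, 17.4 and 8.9 intensity units.

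Of the 11 NF-kB subunit and IkB genes, 5 were lower and 2 higher with lpr urine, and 4 lower and 2 higher with MRL/MpJ urine, with medians of -0.93 and -0.90. Rel, the gene of the c-Rel subunit of lymphocytes, differed by -2.59 and -2.74 on its lead probe and by -1.02 and -1.32 on its other one. Nfkbie, an IkB gene, differed by -2.44 and -2.17. Nfkbiz, the gene of a nuclear IkB protein, was higher by 2.36 and 2.24 on its lead probe and differed by -0.10 and -0.29 on its other one. The other higher gene, named after its value was seen, was Nfkbia, which encodes the main IkB inhibitor and, like Tnfaip3, is a feedback target of NF-kB. Its single measured probe read 17342 with lpr urine, 19644 with MRL/MpJ urine and 8867.5 with PBS, differences of 2.02 and 2.01. Nfkbia and Tnfaip3 thus stood on opposite sides of PBS with both urines at this scaling. Between the urines, 0 genes of the 4 lists were 2-fold apart.

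**Figure D4:**
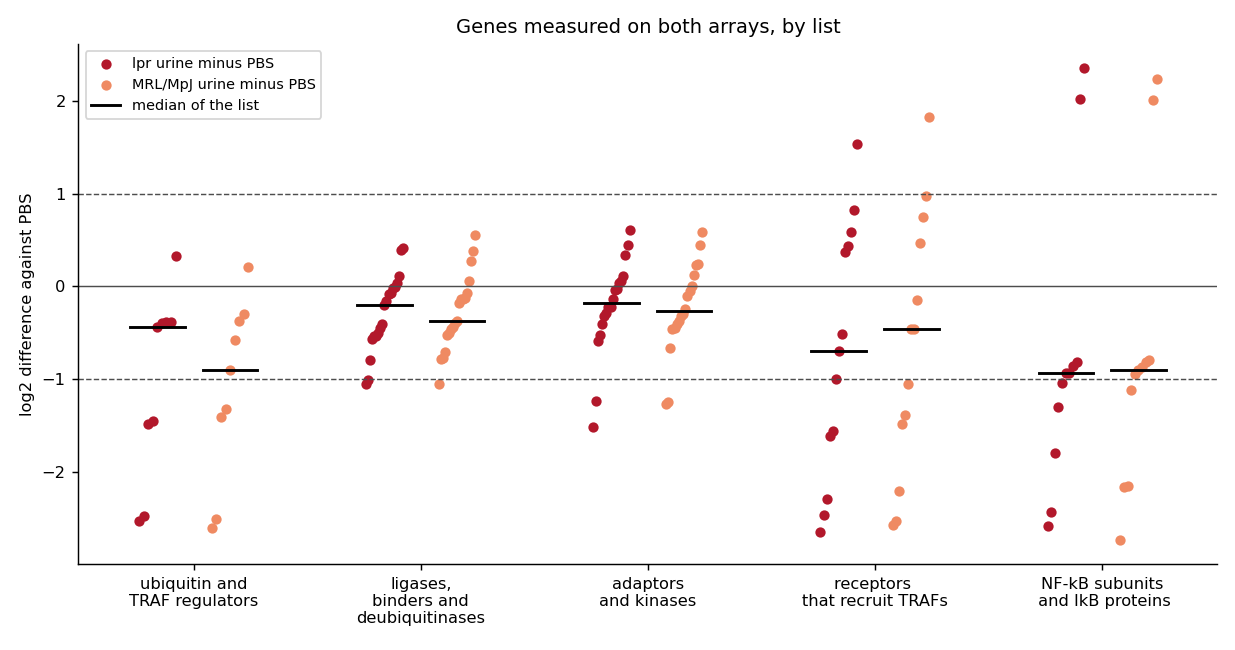
Log2 difference from PBS (y axis) of the members and of the genes of 4 pathway lists (x axis), for lpr urine and MRL/MpJ urine. Each point is a gene on its lead probe measured on both arrays, black bars are list medians and dashed lines mark 2-fold. The 2 lists of ligases and of adaptors and kinases have no point above 1, and the 2 highest points of the last list are Nfkbiz and Nfkbia.

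The scale chosen set how many members counted as lower. Scaling by spike-ins, RNAs added in fixed amounts, moved the median of all genes by -1.0 with lpr urine and -0.91 with MRL/MpJ urine. Against PBS, that median then stood at -0.85 and -0.78. At this scaling 8 of 9 members were 2-fold lower with each urine, and the share of all genes lower was not computed. Tnfaip3 was again the lowest of the 9, at -3.52 with each urine, and Cyld the highest, at -0.66 and -0.70. Scaling by array medians moved the median of all genes by -0.39 and -0.37. Tnfaip3, Tnip1, Traf1 and the Traf6 lead probe were 2-fold lower under each of the 5 scalings and background corrections tried, while Birc2, Birc3, Traf2 and Traf3 on their lead probes passed 2-fold against PBS with the spike-ins and, for Birc3 with MRL/MpJ urine, also with array medians at -1.26.

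**Figure D5:**
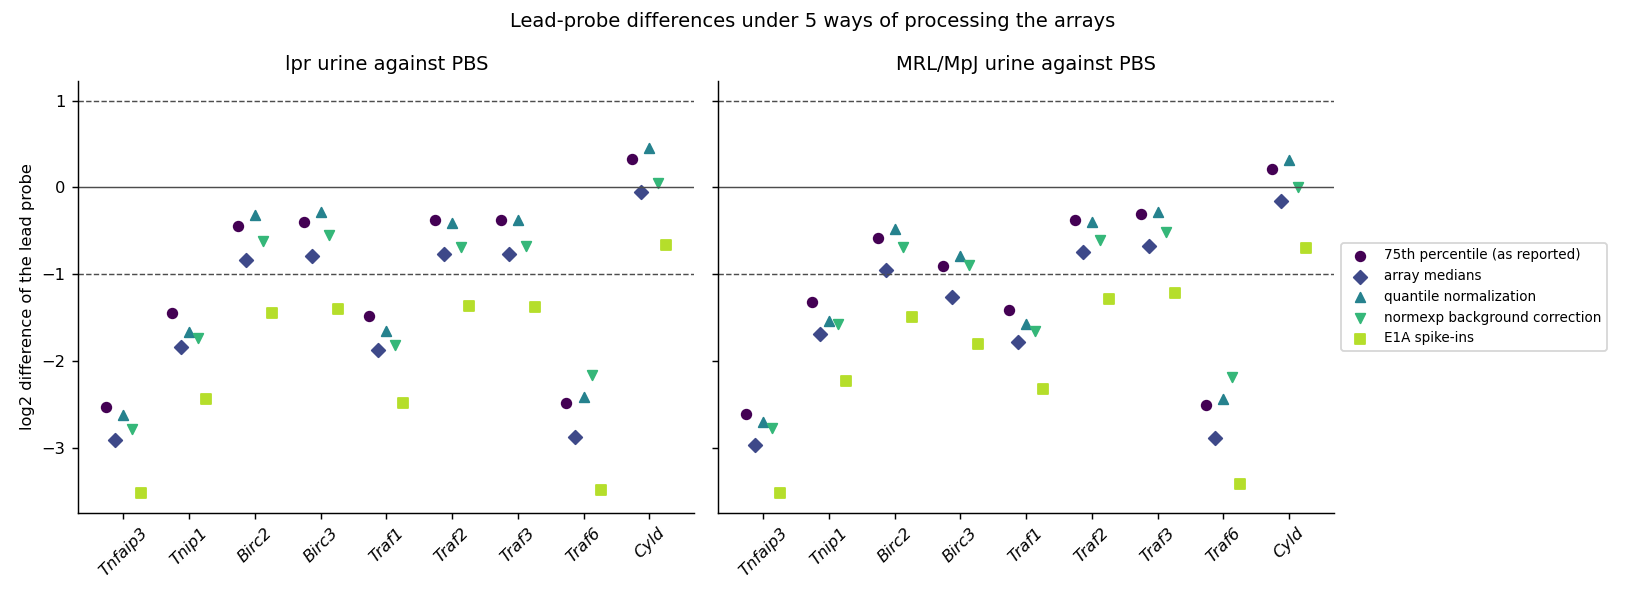
Log2 difference of the lead probe of 9 members (x axis) from PBS (y axis) for lpr urine, left, and MRL/MpJ urine, right, under 5 ways of processing the arrays. Tnip3 is left out because it was not measured on the urine arrays. Spike-in scaling, the lightest squares, puts Tnfaip3 at -3.52 in both panels and leaves Cyld alone above the lower 2-fold line.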

How the data were processed

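Gene expression was measured on 3 single-colour (Cy3) arrays of 60-base probes, 1 per condition, all on 1 slide and from 1 scan, per the file headers. Labelled cRNA was made from 0.05 µg of RNA, per the labels' protocols. Signals were extracted with Agilent Feature Extraction 12.0.3.1, per the submitters' processing notes. The deposited processed signal is a brightness (intensity) with arbitrary units. Per the file headers, the software of the authors removed background, detrended each array and replaced very low values by surrogates, and no step put the arrays on 1 scale. The raw intensity of each spot and of its surroundings, also deposited, served for normexp. The number of arrays limits the precision.

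From these files, flagged spots were removed, the 300 probes spotted 10 times were averaged and 6 probes with all spots flagged were left out. The log2 of each array's 75th percentile was subtracted from the log2 processed signal. Alternatives were array medians, spike-ins, the percentile over measured probes, quantile normalisation, normexp, a brighter filter, other thresholds and other rules for genes with several probes. Calls used the authors' flags for well above background, which are other deposited columns. Probe positions are those in the files on mm9. Python 3.11.15, numpy 2.4.6, pandas 2.3.3 and limma 3.58.1 (R 4.3.3, for normexp with an offset of 50) were used. The calls were tested on simulated data with few changed probes, all changed well past 2-fold. That test says nothing of calls near the threshold or of the choice of scaling.

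Named are all members, up to 3 called and bright genes per pathway list and comparison, and the 3 genes closest to the lowest and to the highest of the 9 members measured on both arrays. The members and lists were chosen with earlier results of these data known.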

Additional observations from a re-analysis of the deposited data

Results flagged for a closer look

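Traf6 probe 5, annotated to the clone AK083275, was the 1 member probe measured on all 3 arrays whose difference from PBS had opposite signs for the 2 urines, at -0.20 with lpr urine and 0.16 with MRL/MpJ urine. The difference between the urines was not tested, and each value is no larger than the SD of 0.20 from repeated spots at this signal.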

How the results depend on the processing

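With 1 array per group no replicate could be left out, and the slide could not enter as a block because all arrays share it. No paired analysis was possible because each group has 1 array. The count of 4 members lower against PBS was 8 for lpr urine and 8 for MRL/MpJ urine under spike-in scaling. The median of all genes there stood at -0.85 and -0.78. The shares of all genes lower were computed neither for this setting nor for a 3-fold threshold, where the count was 2 and 2. It was 2 for MRL/MpJ urine when every probe of a gene had to pass. Under the remaining alternatives it was 3 to 4 for lpr urine and 4 to 5 for MRL/MpJ urine, among them reading genes from RefSeq mRNA probes, an alternative added after the data were seen. The members counted changed: with RefSeq probes and with the median over probes, Traf6 dropped out for both urines, at -0.52 and -0.58 with MRL/MpJ urine, and Birc3 entered for MRL/MpJ urine, at -1.35 and -1.25. The counts of higher members, and both counts between the urines, were 0 under every alternative run. No called lead probe changed sign against PBS, while Birc2, uncalled, reached 0.52 with lpr urine and 0.36 with MRL/MpJ urine when its 2 probes were combined by their median. Over the alternatives, Tnfaip3 ranged from -3.52 to -2.40 with lpr urine and from -3.52 to -2.48 with MRL/MpJ urine, and Traf6 from -3.48 to -0.53 and from -3.42 to -0.52. Dim probes limit the rest: the dimmest probe passing the background call read 4.43 to 4.47 intensity units, and the urine values of Tnip3 lie below that.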
